A study of Drosophila melanogaster with 2 samples.

Results

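The peaks described here are the 1667 rows of a thresholded peak list that have no row with the same arm, start, end and summit in a stricter list, called conservative, of the same experiment. They make up 19.7% of the 8452 rows of the thresholded list, and they are called added peaks below. The 7676 rows of the conservative list are the set they are compared with, and 9343 different rows stand in either list. The irreproducible discovery rate (IDR) that the authors gave each row in 2 separate rankings decided which rows were added: they were selected on an IDR of 0.01 or below in one ranking and not in the other. Signal, rank, width, replicate signals and presence in each replicate's list go with it, and those values are given as descriptions without a test.

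Chromatin immunoprecipitation with sequencing was done on whole pupae of Drosophila melanogaster at 2 days. The flies came from a strain named CG32121-GFP, with an insertion from which CG32121 is made as a fusion with eGFP, and an antibody against GFP pulled the protein down. Both biological replicates, the only group here, carry the same strain and donor label, and the chromatin of each was sheared by sonication to a labelled size range of 200 to 800. The promoter that drives the fusion, the sex of the pupae and how many animals were pooled are not given in the labels, and pupae without the tag and input chromatin were not analysed here. Read numbers are unknown.

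In this assay a peak marks a stretch of the genome whose DNA was recovered with the tagged protein, either bound directly or through other proteins, in any of the cell types of the animal. The IDR asks whether a peak keeps its place when peaks are ranked in a pair of data sets, so a low value stands for a rank that repeats. A pupa is the stage at which ecdysone drives the rebuilding of larval tissue into the adult. Little is assumed here about CG32121, which the RefSeq annotation names only as an uncharacterized protein.

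The sequences below let the strongest added peaks be read directly. They hold the summit with 50 bp to each side, on the plus strand of dm6, and belong to the strongest promoter and other summits whose windows touch no annotated exon and may be printed, with the strongest summit that holds TATAAA. Capitals mark matches to any of 21 short motifs searched on both strands. The windows are chr3R:8694247-8694347 at hb, chr3R:18914751-18914851 at Xrp1, chr2L:20917596-20917696 at sky, chr3L:18771361-18771461 in an intron of ftz-f1, chr3R:21520296-21520396 between genes beside sp3, chrX:2589783-2589883 in an intron of egh and chr3R:28888812-28888912 at Doa.
hb promoter: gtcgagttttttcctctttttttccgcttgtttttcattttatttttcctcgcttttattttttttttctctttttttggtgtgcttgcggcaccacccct
Xrp1 promoter: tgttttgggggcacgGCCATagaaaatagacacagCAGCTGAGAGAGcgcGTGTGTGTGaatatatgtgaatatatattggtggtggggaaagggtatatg
sky promoter: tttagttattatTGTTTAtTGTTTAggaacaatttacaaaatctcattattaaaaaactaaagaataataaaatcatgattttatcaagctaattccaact
ftz-f1 intron: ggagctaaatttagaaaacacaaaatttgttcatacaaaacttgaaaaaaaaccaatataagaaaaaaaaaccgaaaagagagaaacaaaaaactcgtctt
sp3 side: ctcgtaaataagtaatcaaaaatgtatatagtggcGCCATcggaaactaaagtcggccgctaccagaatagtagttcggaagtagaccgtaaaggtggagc
egh intron: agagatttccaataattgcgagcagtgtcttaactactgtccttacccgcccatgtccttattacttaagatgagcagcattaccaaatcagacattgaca
Doa promoter: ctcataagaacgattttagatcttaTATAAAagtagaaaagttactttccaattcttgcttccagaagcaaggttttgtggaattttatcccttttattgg
The windows share no single motif. The hb window is a run of pyrimidines with 35.6% G or C, the ftz-f1 window is rich in A with 25.7%, and the sky window has 18.8%, while the Xrp1 window, at 45.5%, holds the Pleiohomeotic core GCCAT, the E-box CAGCTG, the letters of GAGA factor's element and a repeat of CA.

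Most added peaks were weaker than conservative peaks, and they filled a narrow band. The authors' signal per peak, which has no stated scale, had a median of 72.7 in added peaks (quartiles 59.2 and 84.7) and of 121.5 in conservative rows (88.5 and 190.6). The range was wide all the same, with a lowest added signal of 2.12 and a highest of 413.0. Of the added peaks, 1654 (99.2%) had the width of 396 bp, against 6121 (79.7%) of the conservative rows.

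The added peaks missed the conservative limit by very different distances. In the ranking behind the thresholded list, 9.34% of 92541 rows were within the limit of 0.01, and in the ranking behind the conservative list 8.58% of 91465 rows were. The added peaks had a median IDR of 0.00487 in the first ranking. In the second, which held 1640 of them, the median was 0.0498, with quartiles of 0.0165 and 0.498. There, 528 added peaks (31.7%) lay between 0.01 and 0.02, and 409 (24.5%) lay above 0.5. So the set joins near misses to rows of high IDR in the other ranking.

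**Figure D1:**
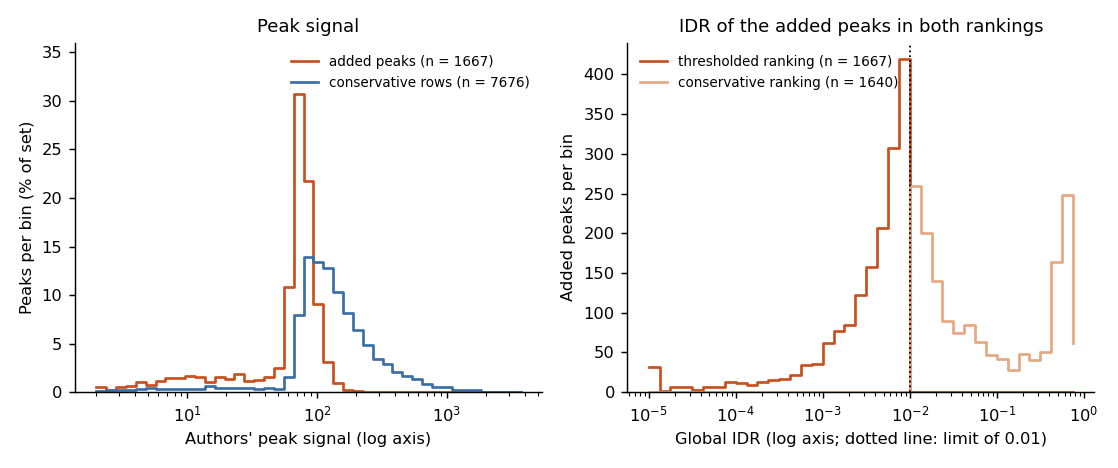
Left, share of peaks (%) by the authors' signal on a log axis for added peaks and conservative rows; right, number of added peaks by global IDR on a log axis in the 2 rankings, with the limit of 0.01 dotted. The added peaks crowd around their median signal of 72.7, and in the conservative ranking they form one heap just past the limit and another above 0.5.

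Around the limit itself the rows look alike. The 5 added peaks just inside it had signals of 64.2, 70.6, 75.1, 42.0 and 64.8. The 5 candidate rows just outside had signals of 73.5, 63.2, 64.5, 62.5 and 11.0. Separately, 195 ranked rows within the limit are missing from the thresholded list, of which 123 are on 3R and 51 on 2L. Their signals were not low, with a median of 120.7 and a highest of 2377.3. They were not analysed here, and why they are missing is not recorded.

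The pairs of intervals behind the rankings differ in kind. Each ranked row carries 2 intervals with signals of their own. In the ranking behind the conservative list, interval 1 was identical to a ranked peak of replicate 1 in 72178 rows and interval 2 to one of replicate 2 in 79560 rows. In the ranking behind the thresholded list, 0 intervals matched a row of either replicate, and nothing in the labels or headers says how its pairs were made. Both lists therefore judge repeatability on different pairs of data.

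Replicate 2 carried most of the signal of added peaks, more so than at conservative peaks. Each replicate's ranked list was searched for a summit at most 200 bp away, and the nearest one, if any, gave that replicate's signal, which gave both values for 1462 added peaks and 7322 conservative rows. Added peaks had a median of 22.9 in replicate 1 and 52.2 in replicate 2. Conservative rows had medians of 47.3 and 81.0. The ratio of replicate 2 to replicate 1 had a median of 2.51 at added peaks (quartiles 1.24 and 3.58) and 1.72 at conservative rows (1.41 and 2.07). The spread of that ratio is what sets them apart, because it exceeded 3 at 519 added peaks (35.5%) and at 197 conservative rows (2.69%), and replicate 1 was the higher one at 289 added peaks and at 284 of the far more numerous conservative rows.

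Conservative rows of a like range of signal also had lower ratios than the added peaks. The 2362 conservative rows with a signal between the 10th and 90th percentile of the added peaks, 12.3 to 98.3, are called rows of like signal, and the added peaks set against them were kept whole. Their signals were not equal, with medians of 72.7 at the added peaks and 81.0 at these rows. The 2182 of these rows with both values had replicate medians of 33.0 and 51.5 and a median ratio of 1.55, with 13 ratios over 3 (0.596%). Signals of 100 or more occurred at 151 added peaks and 4990 conservative rows. Among those with both values, the median ratio was 3.82 and 1.79. That band is open upwards, with highest signals of 413.0 and 4291.3. Agreement between the replicates decides a place in the conservative ranking, so these ratios describe how the rule sorted the peaks.

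**Figure D2:**
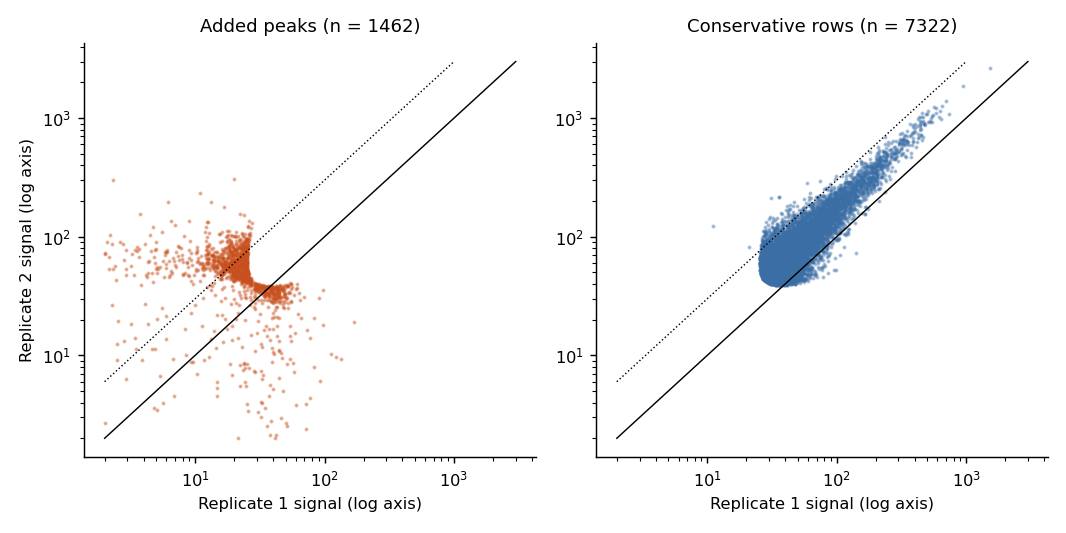
Replicate 2 signal against replicate 1 signal, both on log axes, for added peaks (left) and conservative rows (right); each point is a peak with a summit within 200 bp in both replicates, the solid line is equality and the dotted line a ratio of 3. Added peaks form an arm of low replicate 1 signal and another of low replicate 2 signal, with a median ratio of 2.51, while conservative rows follow a band with a median ratio of 1.72.

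Presence in each replicate's own thresholded list was also more common for replicate 2. Of the ranked rows, 5.82% overlapped a peak of replicate 1's list and 9.36% one of replicate 2's. Of the added peaks, 284 (17.04%) were in replicate 1's list and 953 (57.2%) in replicate 2's. Of the conservative rows, 4229 (55.1%) and 5950 (77.5%) were. Being in replicate 2's list alone was the commonest state of an added peak, with 780 (46.8%), followed by neither list with 603 (36.2%), both lists with 173 (10.4%) and replicate 1's list alone with 111 (6.66%). Among conservative rows, 2066 (26.9%) were in replicate 2's list alone, 1381 (17.99%) in neither, 3884 (50.6%) in both and 345 (4.49%) in replicate 1's list alone. Of the 2362 conservative rows of like signal, 375 (15.9%) were in replicate 1's list and 1001 (42.4%) in replicate 2's. Both lists held 212 (8.98%) of those rows and neither held 1198 (50.7%). For the whole set of added peaks, the lower presence in each list was thus not found at like signal. Without an overlap with a conservative row, 118 of 1373 added peaks (8.59%) were in replicate 1's list and 28 (2.04%) in both. Those 2 shares were below the ones at rows of like signal, while the share in replicate 2's list, 718 (52.3%), was above. With an overlap, 166 of 294 added peaks (56.5%) were in replicate 1's list. Rows of like signal were not divided in this way.

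A minority of the added peaks overlapped the edge of a conservative peak. An added peak overlapped a conservative row by at least 1 bp in 294 cases (17.6%, Wilson 95% interval 15.9 to 19.5), and by at least 50% of its length in 1 case. The other 1373 overlapped none, although some lay close by. Of all added peaks, 861 (51.6%) had a conservative summit within 2 kb and 307 (18.4%) within 500 bp. The median distance to the nearest conservative summit was 1868 bp, the smallest was 199 bp, and 246 added peaks (14.8%) lay over 10 kb away. At the usual width of 396 bp, that smallest distance leaves little room for an overlap of 50%.

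The 294 edge peaks were weaker than the others and had much higher IDR values in the conservative ranking. Their median signal was 18.6, against 75.8 at the 1373 peaks without an overlap, and their median IDR in the conservative ranking was 0.590, against 0.0322. In the ranked list 231 of the 294 (78.6%) had the same interval pair as another row, and for 228 that row was a conservative one. An edge peak thus often stands for the same pair of intervals as the stronger peak beside it. Of the edge peaks, 145 (49.3%) were in both replicates' lists, against 28 peaks without an overlap (2.04%). Whether the replicate peak so overlapped is that of the neighbour was not tested.

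Very weak added peaks were of this kind in most cases. Signals under 20, a limit set after the values were seen, occurred at 230 added peaks (13.8%) and 328 conservative rows (4.27%). Of the 230, 225 had the interval pair of a stronger ranked row, for 149 that of a conservative row. Their own signal had a median of 8.74, while the signals of the paired intervals had medians of 48.8 and 48.7. The added peak at chr2L:20864900-20865295, with its summit 117 bp upstream of CG9338, shows it. Its own signal was 8.75, the paired intervals had 201.0 and 207.8, its IDR was 1e-05, and a conservative summit of signal 391.2 lay 200 bp away.

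**Figure D3:**
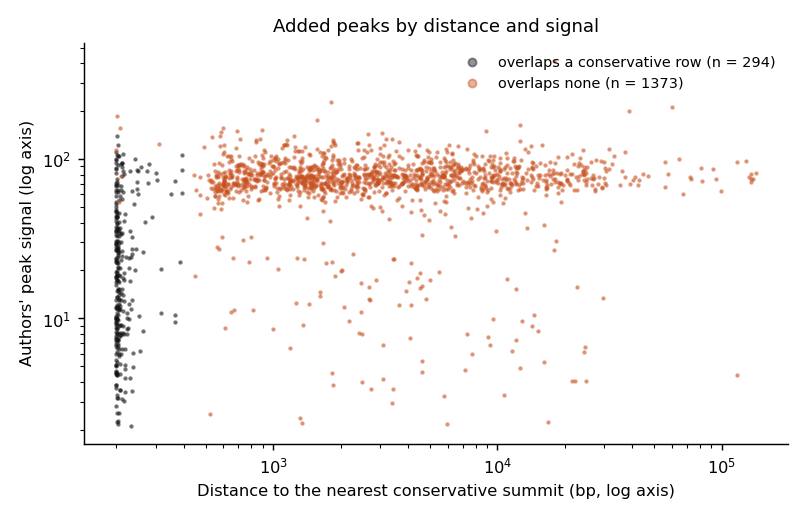
The authors' signal of each added peak against the distance from its summit to the nearest conservative summit in bp, both on log axes, with the 294 peaks that overlap a conservative row in black and the 1373 others in orange. The black points stand near 200 bp and run down to signals of about 2.12, and the orange ones form a level band at a median signal of 75.8.

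The question of where added peaks lie was tested, since position was no part of the rule. Promoters took much the same share of added and of conservative peaks. A summit at most 500 bp from the transcription start site (TSS) of a protein-coding gene was found for 638 added peaks (38.3%, interval 35.97 to 40.6) and 2896 conservative rows (37.7%, 36.7 to 38.8). The difference was 0.54 percentage points (95% interval −2.0 to 3.14, Fisher's exact test, Benjamini-Hochberg adjusted p = 0.719 over 7 classes). Candidate rows past the IDR limit had a promoter share of 16.3%, well below both. Restricted to rows in replicate 2's own list, the shares were 42.4% of added peaks and 38.3% of conservative rows (exact test, adjusted p = 0.0385). Restricted to rows in replicate 1's list, they were 34.9% and 37.0% (exact test, adjusted p = 0.679).

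Coding exons were rare but more frequent among added peaks. They held 39 added summits (2.34%) and 60 conservative ones (0.782%), an odds ratio of 3.05 (Fisher's exact test, adjusted p = 2.83e-06), while 23.4% of the candidate rows past the limit lay in coding exons. Against conservative rows of like signal, 1.65% of which were in coding exons, the odds ratio was 1.43 (exact test, adjusted p = 0.460). Among rows in replicate 1's list it was 2.13 (exact test, adjusted p = 0.592).

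Introns held the largest class of added peaks, 687 (41.2%), against 3416 conservative rows (44.5%). The difference of −3.29 percentage points (−5.88 to −0.665) was just past the threshold, with an adjusted p of 0.049999 by Fisher's exact test. It did not pass against conservative rows of like signal (exact test, adjusted p = 0.460) nor among rows in replicate 1's list (adjusted p = 0.855). Nor did it pass for added peaks that overlap no conservative row (adjusted p = 0.127) or with promoters taken as 1000 bp to each side (adjusted p = 0.213), all by the exact test. Intergenic summits made up 13.4% of added peaks and 13.04% of conservative rows (exact test, adjusted p = 0.719). Peaks are not replicates of an experiment, and these tests cover counting error only.

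**Figure D4:**
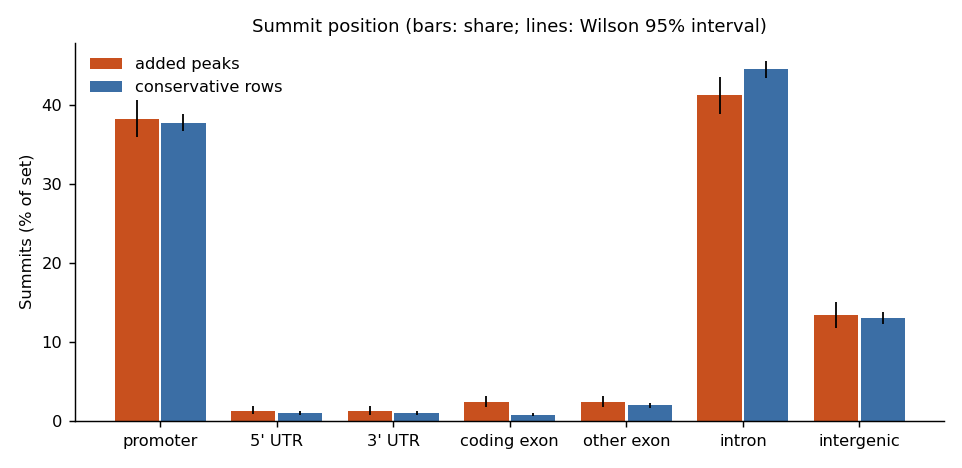
Share of summits (%) in each of 7 position classes for added peaks and conservative rows; bars are shares and lines are Wilson 95% intervals. The promoter bars, 38.3% and 37.7%, overlap in their intervals, and the coding exon bars, 2.34% and 0.782%, do not.

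Within promoters, added summits lay upstream of the start site less often. Upstream summits numbered 358 of 638 at added peaks (56.1%, 52.2 to 59.9) and 1982 of 2896 at conservative rows (68.4%, 66.7 to 70.1). The median position was 25 bp upstream of the nearest TSS for added peaks, at −25 bp, and −86 bp for conservative rows. The upper quartiles were 92.8 bp downstream at added peaks and 38 bp downstream at conservative rows, so added summits were shifted along the gene and not shown to be nearer the TSS. Fisher's exact test, added after the values were seen, gave an odds ratio of 0.590 (p = 5.05e-09). Against conservative rows of like signal, whose upstream share was 55.4%, the odds ratio was 1.03 (exact test, p = 0.794).

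The chromosome arms showed no difference past the threshold. In Fisher's exact tests, 0 of 6 arms passed, with 0 at an unadjusted p below 0.05. The largest shift was at 2L, with 319 added peaks (19.1%) and 1315 conservative rows (17.1%, exact test, adjusted p = 0.328). The small arm 4 had 3 added peaks and 11 conservative ones. Ranked rows within the limit but missing from the thresholded list, most of them on 3R, are not in the counts of added peaks.

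The base composition of the summit was the clearest sequence difference. The window around an added summit had a median of 42.6% G or C (quartiles 33.7 and 50.5), against 36.6% (28.7 and 46.5) at conservative summits, while windows 500 bp away had 41.6% in both sets. A window at or below the conservative median was found at 550 added summits (33.0%) and 4052 conservative ones (52.8%), an odds ratio of 0.441 (Fisher's exact test, adjusted p = 6.00e-48 over 22 features). Among rows that overlap replicate 1's list, the ratio was 0.238 (exact test, adjusted p = 2.38e-24). Those rows still come from lists made from both replicates. Their median signals lay further apart, at 59.2 for added peaks and 175.9 for conservative rows. The AT-rich dip at conservative summits is thus shallow at added summits.

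At like signal the difference was far smaller. Conservative rows of like signal had a median of 42.6% as well, and a window at or below it was found at 52.2% of added summits and 52.6% of theirs, an odds ratio of 0.985 (exact test, adjusted p = 1). In bands of signal, the medians were 45.5% in both sets under 20, 42.6% in both sets between 60 and 80, and 37.6% at added peaks and 32.7% at conservative rows from 100 up. That last band reached 413.0 at added peaks and 4291.3 at conservative rows. The 891 rows that are in the conservative list alone also had a median of 42.6%.

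**Figure D5:**
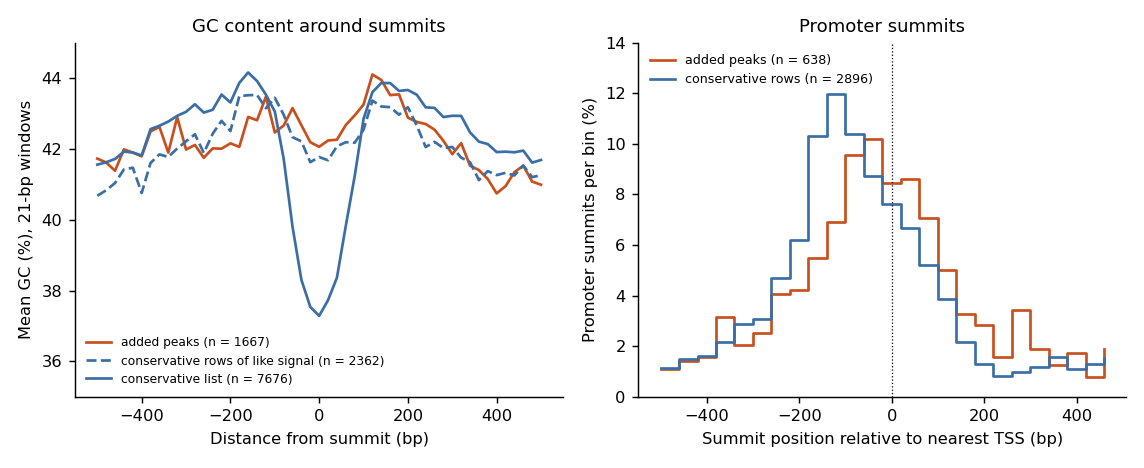
Left, mean G and C content (%) in 21-bp windows by distance from the summit in bp for added peaks, conservative rows of like signal and all conservative rows; right, share of promoter summits (%) by position relative to the nearest TSS in bp. The dip at the summit is deep for all conservative rows and nearly flat for the other lines, and added promoter summits, at a median of −25 bp, are shifted downstream of the conservative ones at −86 bp.

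Of the 21 motifs, 1 differed. TATAAA, the letters of the TATA box to which the TATA-binding protein attaches, stood within 50 bp of 208 added summits (12.5%) and 1356 conservative summits (17.7%), an odds ratio of 0.666 (Fisher's exact test, adjusted p = 1.60e-06). Windows 500 bp away held it at 12.8% around added peaks and 12.2% around conservative ones, and 16.7% of all summit windows held it. The Doa window above holds the strongest added example that could be printed. Against conservative rows of like signal, of which 12.7% held TATAAA, the odds ratio was 0.984 (exact test, adjusted p = 1).

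No other motif passed, though some come close. GCCAT, the core recognised by Pleiohomeotic, was at 272 added summits (16.3%) and 1064 conservative ones (13.9%, Fisher's exact test, adjusted p = 0.0793). Of all summit windows, 14.3% held it. It was less frequent at the summit than beside it in both sets, with 19.05% in the flanks of added peaks and 18.3% in those of conservative ones. Its odds ratio was 1.01 against conservative rows of like signal, of which 16.2% held it. TAAACA, a forkhead site, was at 164 (9.84%) and 916 (11.9%), with an adjusted p of 0.0877, and 11.6% of all windows held it. GAGAGAG, bound by GAGA factor, was at 60 added summits (3.599%, 2.19% in their flanks) and 251 conservative ones (3.27%, 2.18% in their flanks), with 3.33% over all windows and an interval of the difference from −0.569 to 1.40 percentage points. ACAGTG was at 6.90% of added summits (flanks 3.87%) and 6.201% of conservative ones (flanks 4.21%), with 6.33% over all windows. All motifs but the TATA box, the Pleiohomeotic core and the forkhead site had adjusted p-values of 0.199 or above by Fisher's exact test. GAGAGAG and ACAGTG were more frequent at the summit than beside it in both sets.

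The added promoter peaks brought in genes beyond those of the conservative list. Of 13945 protein-coding genes, 2993 (21.5%) had a conservative summit within 500 bp of a TSS and 683 (4.9%) had an added one. Of the 683, 233 were already reached by a conservative summit, which left 450 genes (3.23% of all) reached through an added peak alone. In these terms, 422 of the 638 promoter peaks added a gene and 216 did not. With only the peaks in replicate 2's own list the count was 268 genes, and with only those in replicate 1's it was 30. Neighbouring genes that share a promoter are counted each.

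The strongest such gene was hb (FBgn0001180, chr3R:8690980-8697822), which encodes the zinc finger protein Hunchback that patterns the embryo and times neuroblast fates. Its added peak, 303 bp downstream of a TSS, had the top signal of all added peaks, 413.0, with 275.7 in replicate 2 and no replicate 1 summit within 200 bp. It was absent from the conservative ranking, and its paired intervals had signals of 192.0 and 221.5. The nearest conservative summit lay 17915 bp away.

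A peak inside mal was the next, which also lay within 500 bp of the start of CG11710. Its signal was 200.1, with values of 97.5 in replicate 1 and 17.99 in replicate 2, so replicate 1 was the higher. mal encodes the enzyme that adds sulfur to the molybdenum cofactor. The summit lay 144 bp upstream of an internal TSS of mal (chrX:20429675-20433210) and 38427 bp from the nearest conservative summit.

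Others were led by replicate 2. Xrp1, a transcription factor of stress and cell competition, had a peak at 150.6, with 6.56 in replicate 1 and 135.7 in replicate 2. Doa, a LAMMER protein kinase, had 133.9 with 26.9 and 118.4. Much the same split was found at RpL30, a protein of the large ribosomal subunit, with 133.5, 25.9 and 105.7. In these 3 genes replicate 1 reached at most 26.9 while replicate 2 had at least 105.7.

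Further genes of the 20 strongest had like patterns. They include CG44812 (163.6), Obp99b (140.5), which encodes an odorant-binding protein, edl (131.6), whose product acts with ETS factors in EGFR signalling, Tret1-1 (127.9), a trehalose transporter, and Ak3 (126.3), an adenylate kinase. Sf3b6, a splicing factor subunit, and Tnpo, a nuclear import receptor, share 1 peak of signal 128.9. Sap130 (122.0) and dnr1 (115.6) are further down. Obp99b is like hb in having no replicate 1 summit within 200 bp, with 101.8 in replicate 2.

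The strongest added peaks away from promoters lay in introns of ftz-f1, egh, msn and sog and between genes beside sp3. An intron of ftz-f1, the nuclear receptor that opens the prepupal response to ecdysone, held a peak at 227.9, with 22.3 in replicate 1 and 154.9 in replicate 2, 1811 bp from a conservative summit. An intron of egh, a glycosyltransferase gene, held one of 186.6 (18.2 and 111.1) and an intron of msn, a kinase gene, one of 176.7 (23.9 and 152.6). The sog intron peak of 157.0 had 65.3 in replicate 1 and 20.8 in replicate 2, and sog encodes a secreted inhibitor of BMP signalling. Beside sp3, between genes, a peak of 213.1 had 49.6 in replicate 1 and no match in replicate 2. The egh and sog peaks lay 202 and 207 bp from conservative summits of 490.2 and 326.3, so these 2 stood right beside larger peaks.

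At CG32121 itself an added peak was found in an intron, 1031 bp downstream of a TSS, at chr3L:13421225-13421327. Its signal was 114.4, with 19.1 in replicate 1 and 13.6 in replicate 2, and its IDR was 0.00164 in the thresholded ranking and 0.490 in the conservative one. A conservative summit of signal 237.2 lay 200 bp away. DNA of the insertion and of the gene's own locus cannot be told apart there.

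Gains were also counted in lists of genes of known pathways. They are given by counts beside the background of 3.23% of all genes gained and 21.5% reached by conservative peaks, with no test. The ecdysone response list gained 0 of 26 genes, with 18 reached by conservative peaks. The BTB transcription factors gained 0 of 18, with 12 reached. The neuronal list gained 0 of 22, with 5 reached, the dpr and DIP adhesion proteins 0 of 32, with 3 reached, and the ecdysteroid synthesis genes 0 of 13, with 2 reached. In the ecdysone and BTB lists most genes had a conservative promoter peak, while in the other 3 of these lists most had none. Whether this bears on the gains of 0 was not tested.

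Signalling lists gained 1 or 2 genes each. The Notch list gained 2 of 23 (8.70%, against 3.23% of all genes), with 13 reached. They were pen-2, a subunit of gamma-secretase, at 76.5 (20.5 in replicate 1, 52.3 in replicate 2), and dx, the ubiquitin ligase Deltex, with 63.2 (28.5 and 36.8). The list of Wnt, Hedgehog, Dpp and EGFR genes gained 1 of 29, with 16 reached, namely dpp, the BMP ligand, with 76.7 (25.2 and 51.3). Its IDR in the conservative ranking was 0.0108, among the nearest misses.

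The Hippo list gained 2 of 16 (12.5%, against 3.23% of all genes), with 7 reached. They were dco, a casein kinase that is also the clock kinase Doubletime, with 111.8 (26.3 and 103.5), and ex, an upstream activator of the pathway, with 101.7 (25.03 and 70.3). dco was also the gain of the circadian list, 1 of 15, with 7 reached. Both missed the conservative limit narrowly, with IDR values of 0.0111 and 0.0112.

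Chromatin and patterning genes gained 1 each. Snr1, a subunit of the Brahma remodeller, had 65.2 (14.8 and 48.99) and was the gain among 29 Polycomb and trithorax genes, 12 of which were reached. The insulator list gained pita, a zinc finger insulator protein, 1 of 17 with 6 reached, at 83.9 with 73.7 in replicate 2. The Hox list gained abd-A, 1 of 8 with 1 reached, at 97.9 with 64.8 in replicate 2, its nearest conservative summit 128327 bp away. Neither pita nor abd-A had a replicate 1 summit within 200 bp.

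Cytoplasmic ribosomal protein genes, one of the larger lists, had the most gains by count, 6 of 88, with 41 reached. Their share was 6.82%, against 3.23% of all genes. By share the Hippo and Hox lists (12.5% each), the Notch list (8.70%) and the cell cycle list (7.69%) stood higher. Among them were RpL30, RpS21 (95.9), RpL8 (91.9) and RpS3A (89.0). RpL8 had the higher signal in replicate 1, with 52.3 and 25.2, though its peak overlapped replicate 2's thresholded list and not replicate 1's. RpL30, RpS21 and RpS3A had the higher signal in replicate 2, which was also the higher one at 96.1% of conservative rows with both values. Mitochondrial ribosomal protein genes gained 2 of 73, with 25 reached: mRpL4 (85.9) and mRpL44, which shares its peak with Snr1.

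The remaining lists gained at most 2 genes each. The cell cycle list gained aurA, the Aurora kinase, at 79.3 and geminin, an inhibitor of replication licensing, at 68.3, which made 2 of 26 with 11 reached. The vacuolar ATPase list gained Vha13 (102.1) and VhaM9.7-b (67.9), 2 of 33 with 8 reached. The cell death list gained Drice, an effector caspase, at 78.9, which was 1 of 21 with 11 reached. The heat shock list gained Hsp68, a chaperone, at 73.2, 1 of 19 with 10 reached. The muscle list gained TpnC73F, a troponin C, at 87.0, 1 of 25 with 5 reached, and the tanning and pigment list ry, xanthine dehydrogenase, at 71.3, 1 of 16 with 4 reached. Of 48 proteasome genes 1 was gained, Rpt5, an ATPase, at 78.3, with 8 reached. Of these signals Vha13's was above the 90th percentile of added peaks, 98.3, and TpnC73F's above their upper quartile, 84.7. The chemosensory receptors gained 1 of 179, with 2 reached, namely Gr63a, a part of the carbon dioxide receptor, at 75.4, and the cuticle proteins 1 gene (0.870% of them), with 4 reached, namely Cpr97Ea at 64.9.

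The genes with the most added peaks in the body or up to 1 kb upstream were long ones that already held many conservative peaks. Over all arms there were 1667 added peaks beside 7676 conservative rows, and no gene's counts were tested against these. Glut4EF and CG46467, which overlap, had 8 added and 13 conservative peaks. Svil, whose product binds actin, had 7 and 18. Eip75B, an ecdysone-induced nuclear receptor, had 6 and 30, Pdp1, a bZIP factor of the clock, 6 and 16, ftz-f1 6 and 16, and hth, a homeodomain factor, 6 and 17. At Eip75B 3 of the 6 overlapped a conservative row, and at Pdp1 0 did. The added signals ran from 17.2 to 77.1 at Eip75B and from 15.8 to 105.5 at Pdp1.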

How the data were processed

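The 8 peak lists were deposited by the authors in dm6: a ranked and a thresholded list of each replicate, and 2 of each kind for the series. By the order of the columns and their values, the deposited lists hold a signal per peak, a score, and −log10 values of the q value and of the IDR. The aligner and peak caller are not named in the sources used here. Inputs of undescribed content besides the alignments went into the lists. The members, gene lists and motifs were chosen with earlier results of these data known. The conservative list served as the comparison set. Summits took the first of 7 classes that applied (promoter, then UTR of either end, exon with and without coding sequence, intron, intergenic), from Ensembl release 115, and no peak ran past the end of an arm. The 21 motifs (GAGA factor site GAGAGAG, dinucleotide repeat CACACAC, box of the TATA-binding protein TATAAA, DNA replication-related element ATCGATA, motif 1 core GTCACAC, site of GATA factors AGATAA, Pleiohomeotic core GCCAT, E-box CAGCTG, E-box CACGTG, nuclear receptor site AGGTCA, Zelda site CAGGTA, the motif ACAGTG, AP-1 site TGACTCA, initiator TCAGTT, TEAD site GGAATG, ETS site CCGGAA, Runt site ACCACA, homeodomain site TAATTA, forkhead site TAAACA, TCF site CTTTGA, Su(H) site GTGGGAA) were searched on both strands, and matches could overlap. Counts were compared with two-sided Fisher's exact tests (SciPy 1.17.1) and Newcombe intervals (statsmodels 0.14.6), adjusted within each family at 0.05, after a test on simulated data. Odds ratios add a small constant to each count. Intervals on shares are Wilson 95% intervals. Read depth is unknown. Named were the 10 strongest added peaks, 5 on each side of the limit, the one nearest CG32121, the 20 strongest genes gained, up to 2 per gene list, the 5 genes with most added peaks, and not every one is printed. CG9338, further ribosomal protein genes, and motifs without a passing test were chosen after their values were seen. Alternatives are given in the closing section.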

Additional observations from a re-analysis of the deposited data

How the results depend on the processing

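No paired analysis was possible because the 2 replicates form 1 group. All values here are odds ratios of added over conservative rows unless a count is named. Against conservative rows of like signal, the coding exon ratio was 1.43, intron 0.905, TATAAA 0.984 and low GC 0.985, none past the threshold, 0 motifs passed, and the signs of 3' UTR (0.984), GAGAGAG (0.934), AGATAA (1.05) and the upstream side of promoter summits (1.03) turned. The cause was not tested. With rows of signal 20 or more in that range, a choice made after seeing the data, these were coding exon 1.62, intron 0.908, TATAAA 1.03, low GC 0.984, 0 motifs, 3' UTR 0.904, GAGAGAG 0.951, AGATAA 1.02, GCCAT 0.984, ACAGTG 0.984 and upstream side 1.07. At an IDR of 0.005 or below the coding exon ratio was 2.68 (Fisher's exact test, adjusted p = 0.0571) and 229 genes were gained, with fewer peaks by construction. For added peaks that overlap no conservative row the intron ratio was 0.883 and no longer past the threshold (exact test, adjusted p = 0.127). A promoter window of 250 bp gave a promoter ratio of 0.975, and one of 1000 bp an intron ratio of 0.900 that did not pass (exact test, adjusted p = 0.213). Windows of 100 bp to each side called 2 motifs, TATAAA and GCCAT (1.24), and turned ACAGTG (0.906). Counting only overlaps of at least 50% of the peak left 1 added peak on a conservative row. With summits at least 199 bp apart and 99.2% of added peaks 396 bp wide, such overlaps were hardly possible. Without replicate 1 or without replicate 2, where both sets kept only rows that overlap the other replicate's list, the promoter ratio ran from 0.912 to 1.19, coding exon from 2.13 to 2.88, intron from 0.807 to 0.956, low GC from 0.238 to 0.395, intergenic from 0.951 to 1.02, 5' UTR from 0.594 to 2.84, AGATAA from 0.372 to 0.833, the motifs called from 1 to 2 (AGATAA besides TATAAA without replicate 2, exact test, adjusted p = 0.00982) and the genes gained from 30 to 268. Arms stayed at 0 called of 6 in every alternative run, with at most 1 at an unadjusted p below 0.05 by Fisher's exact test. In all, 46 values that answer a comparison and 68 further ones kept direction and side of the threshold, or stayed within 1.5 times. Of the first kind, 12 lost the threshold, 1 gained it, 3 turned direction and 8 counts moved further, and of the second, 2 gained the threshold and 13 turned direction. Unknown depth limits all counts of weak peaks.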

Other observations

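The 891 rows found in the conservative list alone are the counterpart of the added peaks. Their median signal was 73.0, against 72.7 at the added peaks, and their median replicate ratio was 1.54, against 2.51. Of these rows, 362 (40.6%) had a promoter summit. In the thresholded ranking 873 of them had an IDR, with a median of 0.0896. Signals under 20 made up 161 of them (18.1%).

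Few added peaks touched other annotated features. A summit in an annotated transposable element was found for 2 added peaks and 13 conservative rows, and a summit within 500 bp of a noncoding TSS for 83 added peaks (4.98%) and 374 conservative rows (4.87%).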
